A study of Mus musculus with 10 samples.

Results

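Hair follicle stem cell genes are described here as 10 genes chosen by name, *Lgr5*, *Lgr6*, *Cd34*, *Sox9*, *Lhx2*, *Nfatc1*, *Krt15*, *Lrig1*, *Tcf7l1* and *Foxc1*, out of 24454 genes in the count table. All 10 passed the filter on low counts and were among the 15543 genes tested. The libraries came from full-thickness back skin of 5 WT mice and of 5 *Zfp36*ΔARE mice, 1 per mouse. *Zfp36*ΔARE mice are knock-in animals that lack an instability element in the 3′ UTR of *Zfp36*, the gene for the mRNA-destabilizing protein TTP (tristetraprolin), at its endogenous locus in every cell, so that no promoter or Cre limits the allele to the follicle. Controls were WT littermates, and both groups were C57BL/6 mice aged 7 weeks at the start. Both groups received 400 nmol of the mutagen DMBA once on shaved back skin that had been checked for the absence of hair growth, and then 10 nmol of the phorbol ester TPA in 0.2 ml acetone repeatedly for 20 weeks. The skin sequenced was treated but held no tumor, and no group without DMBA and TPA was sequenced, so the values compare genotypes within treated skin. The hair cycle stage of the skin at collection is not given in the sources used here.

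The hair follicle is rebuilt in cycles of growth and rest from stem cells kept in the bulge and the hair germ, while other stem cell pools maintain the isthmus above the bulge, the sebaceous gland and the epidermis between follicles. Bulge stem cells are held at rest by BMP signals and by transcription factors such as NFATC1 and FOXC1, and they are activated by Wnt signals, which R-spondins strengthen through LGR receptors. Follicle stem cells are among the cells in which DMBA and TPA can start papillomas. In full-thickness skin these transcripts are averaged over epidermis, follicles, vessels, fibroblasts, fat and muscle, and fewer cells of a type and less RNA per cell cannot be told apart.

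In mm10 (GRCm38, GENCODE M21), *Lgr5* lies on chromosome 10 from 115450311 to 115587780, *Lgr6* on chromosome 1 from 134983301 to 135105276 and *Cd34* on the same chromosome from 194938819 to 194961279. *Sox9* lies on chromosome 11 from 112782224 to 112787760, *Krt15* on the same chromosome from 100131758 to 100135928, and *Foxc1* on chromosome 13 from 31806633 to 31812476. TTP binds AU-rich elements, whose core is ATTTA and whose longer form is TATTTAT, and the longest annotated 3′ UTR of each gene was searched for both on the strand of the gene. ATTTA, which every TATTTAT contains, was present in the 3′ UTR of 9 of the 10 genes, all but *Krt15*, against 68.8% of 14397 tested genes with an annotated 3′ UTR. TATTTAT was present in 5 of the 10, *Lgr5*, *Lgr6*, *Sox9*, *Lhx2* and *Lrig1*, against 29.4% of those genes. The 3′ UTRs differ in length, from 259 bases in *Krt15* to 3635 in *Lgr6*, with a median of 1128 over the tested genes, and a longer 3′ UTR holds more matches. The matches are shown because TTP, the product of the altered gene, binds sequences of this kind. They are written in DNA letters on the strand of the gene, with the heptamer in capitals, and each lies in the 3′ UTR.
Lgr5, chr10:115451019-115451043, minus strand: tcggatctgTATTTATttctgagta
Lgr5, chr10:115450517-115450541, minus strand: atagacttgTATTTATtgctacagg
Lgr6, chr1:134985139-134985163, minus strand: tggcagattTATTTATcaattgttt
Sox9, chr11:112786751-112786775, plus strand: tgctaaaatTATTTATtttgtaagg
Lhx2, chr2:38369513-38369537, plus strand: ctctctgtaTATTTATgaccagagc
Lrig1, chr6:94604624-94604648, minus strand: gtacagagtTATTTATttatagaaa
The stretch from *Lrig1* holds a second heptamer that overlaps the one in capitals. The 3′ UTRs of *Cd34*, *Nfatc1*, *Foxc1*, *Krt15* and *Tcf7l1* held no TATTTAT, which says only that these letters are not in the annotated window. Binding of TTP was not measured in these libraries.

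The count table held between 19595035 and 36419573 counts per library, and a member had between 211 and 21563 counts in a library, so counting error was small beside the spread between mice. A normalized count is a count scaled with edgeR's TMM factors to the mean effective size of the libraries. *Zfp36* itself had 1824 to 2496 normalized counts in WT and 4196 to 6134 in *Zfp36*ΔARE libraries, with no overlap. Transcripts that mark sex differed between the groups, with 3349 to 4262 counts from 4 Y-linked genes in *Zfp36*ΔARE replicates 2 to 5 and at most 1 in the other 6 libraries, so that these marks and the genotype cannot be told apart. Markers of hair shaft and inner root sheath were lowest in WT replicates 3 and 1, with scores of 4.50 and 7.22 (mean log2(CPM + 1) of 15 genes), against 9.31 to 9.69 in the other WT libraries and 10.1 to 11.3 in *Zfp36*ΔARE libraries. Basal keratinocyte markers, which stand for the cells among which follicle stem cells lie, were present in every library, and their summed level ranged from 199938 to 322298 normalized counts in WT and from 170520 to 344883 in *Zfp36*ΔARE skin.

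With an adjusted p under 0.05 in edgeR's quasi-likelihood test, adjusted by the Benjamini-Hochberg method, 3 of the 10 genes differed between the groups, beside 34.3% of all tested genes. *Cd34* and *Nfatc1* were lower in *Zfp36*ΔARE skin (beside 19.1% of all genes), and *Foxc1* was higher (beside 15.3%). A fold change over 2 was reached by *Cd34* alone, 1 of 10, beside 8.31% of all genes, 6.64% lower and 1.67% higher. The groups did not overlap for 2 of the 10, *Cd34* and *Nfatc1*, beside 23.1% of all genes, and both were below WT, beside 11.9%. Over the 10 genes the median log2 fold change was -0.17, from -1.10 to 0.46, and over all tested genes it was 0.0076. The counts of members are thus close to the share of all genes that differed.

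**Figure D1:**
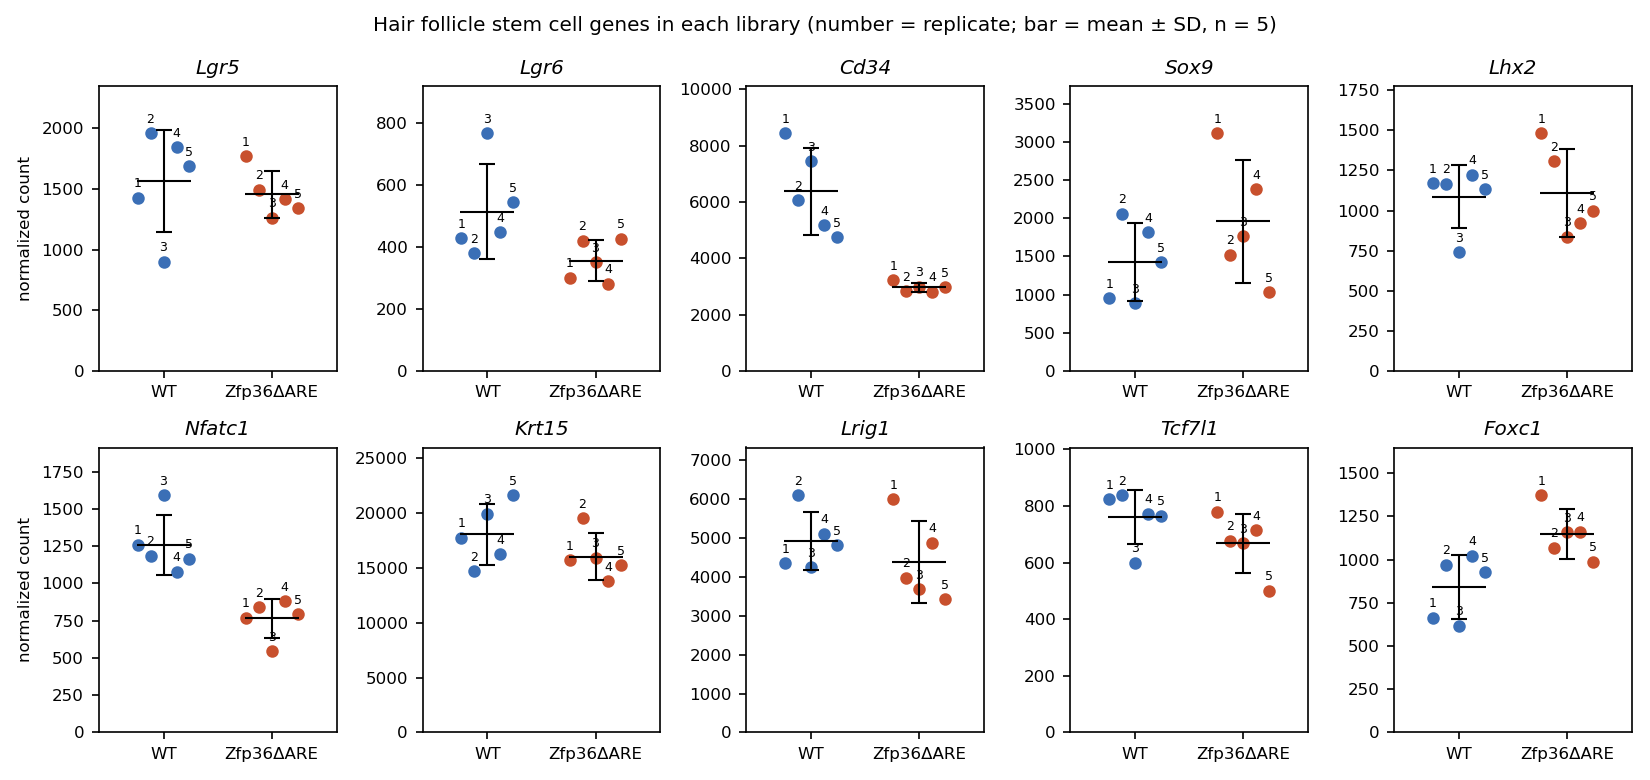
Normalized counts (y axis, from 0) of the 10 genes in each WT and *Zfp36*ΔARE library, with the replicate number above each point and the mean ± SD (n = 5) as a bar. The 5 *Zfp36*ΔARE points lie below the 5 WT points for *Cd34* and *Nfatc1*, and the groups overlap for the other 8 genes.

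Levels per gene length, as RPKM (counts per kilobase of the gene length the authors give, at a common library size), set the members apart. *Krt15*, a keratin of bulge and basal cells, had the highest level, with means of 393 ± 60.6 and 349 ± 46.2 in WT and *Zfp36*ΔARE libraries (SD, n = 5). *Cd34* followed with 91.2 ± 22.1 and 42.4 ± 2.26, and *Lrig1* with 37.2 ± 5.64 and 33.2 ± 7.97. These 3 genes kept to separate ranges in WT, so that each of them differed from its neighbour in the order beyond the spread between mice. From the fourth place on, neighbouring ranges overlapped in all 6 pairs. *Lhx2* had a mean level of 14.4 in WT, *Sox9* 12.9, *Lgr5* 12.4, *Tcf7l1* 9.88, *Foxc1* 7.89, *Nfatc1* 6.34 and *Lgr6* 5.31. In *Zfp36*ΔARE skin *Krt15*, *Cd34* and *Lrig1* again held the first places in that order by mean, and *Nfatc1* (3.86) and *Lgr6* (3.68) the last. *Krt15* belongs to the keratin family, and how reads that match several genes were counted is not given in the sources used here, so its level is uncertain.

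*Cd34*, which encodes a surface sialomucin used to sort bulge stem cells and is also made by capillary endothelium, fibroblasts and mast cells, differed most. WT replicates 1 to 5 had 8432, 6069, 7454, 5176 and 4744 normalized counts. *Zfp36*ΔARE replicates 1 to 5 had 3214, 2839, 2986, 2817 and 2971. Every *Zfp36*ΔARE library lay below every WT library, and the *Zfp36*ΔARE libraries were close together, with an SD of 5.34% of their mean against 24.3% in WT. The means were 6375 ± 1548 and 2965 ± 158 (SD, n = 5 mice per group), and the log2 fold change was -1.10 (standard error 0.15, 95% interval -1.43 to -0.78), which is 2.15-fold lower, with an adjusted p of 0.0040 from edgeR. The exact two-sided permutation test gave p = 0.0079, the smallest that 5 mice against 5 allow. Without WT replicates 1 and 3, whose values were the highest, the log2 fold change was -0.85 (edgeR adjusted p = 0.0029), and without WT replicate 1 alone it was -0.98, so that the fold no longer exceeded 2. An exon of *Cd34* overlaps the gene model *Gm16897* on the other strand, which had at most 6 counts in a library.

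*Nfatc1*, a transcription factor that keeps bulge stem cells at rest and that endothelial and immune cells also express, was lower as well. WT replicates 1 to 5 had 1259.9, 1187, 1594, 1077 and 1167 normalized counts. *Zfp36*ΔARE replicates 1 to 5 had 770.3, 839, 544, 879.9 and 792.5. The groups did not overlap, although the lowest WT and the highest *Zfp36*ΔARE library were nearer to each other than for *Cd34*. The means were 1257 ± 199 and 765 ± 131 (SD, n = 5 mice per group), and the log2 fold change was -0.72 (standard error 0.14, 95% interval -1.02 to -0.41), which is 1.64-fold lower, with an adjusted p of 0.0076 from edgeR and p = 0.0079 in the exact two-sided permutation test. Without WT replicates 1 and 3 the log2 fold change was -0.58 (edgeR adjusted p = 0.025).

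Markers of several other cell types also differed between the groups. Beside 19.1% of all tested genes lower and 15.3% higher, 9 of 10 endothelial markers were lower in *Zfp36*ΔARE skin and the remaining one, *Egfl7*, did not pass (log2 fold change -0.47, edgeR adjusted p = 0.073), with a median log2 fold change of -0.98. Their summed level ranged from 6293 to 13828 normalized counts in WT and from 3937 to 5046 in *Zfp36*ΔARE skin, with none of the markers at 0. Of 9 fibroblast markers, 6 were lower and 0 higher, with a median of -0.78, and their sum ranged from 179758 to 377340 and from 102271 to 275852. Mast cell markers were lower for 6 of 7 genes and higher for *Kit*, with sums of 6093 to 15216 and 3402 to 4282, and macrophage markers were lower for 8 of 8, with sums of 14285 to 29639 and 6925 to 11165. Skeletal muscle markers were lower for 8 of 8 (median log2 fold change -1.51), adipocyte markers for 6 of 8 (-1.19) and sebaceous gland markers for 5 of 9 (-0.41). Melanocyte markers were higher for 5 of 6 (1.15). Numbers of cells were not measured. Of the differentiating keratinocyte markers tested, 1 of 6 was higher and 1 lower. Of T cell markers 1 of 6 was lower, *Thy1*, which the fibroblast list also holds and counts as lower. Of 8 basal keratinocyte markers, 3 were lower, and their log2 fold changes had a median of -0.21 and ranged from -0.45 to 0.33, beside -1.10 for *Cd34* and -0.72 for *Nfatc1*. With the endothelial score as a covariate, a fit chosen after the data were seen, the log2 fold change was -0.66 for *Cd34* (edgeR adjusted p = 0.71) and -0.35 for *Nfatc1* (adjusted p = 0.80), and 0 of all 15543 genes passed in that fit, with 1014 at an unadjusted p under 0.05. The endothelial score did not overlap between the groups either. With Y-linked counts as a covariate the log2 fold changes were -0.99 (standard error 0.28, edgeR adjusted p = 0.18) for *Cd34* and -0.71 (standard error 0.27, adjusted p = 0.20) for *Nfatc1*, and again 0 of all genes passed, with 3382 at an unadjusted p under 0.05. The part of vessels and other cells in the 2 decreases was not tested.

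Ratios within a library were chosen after the values of each gene were seen and are given as a description, with no test. *Cd34* per *Krt15* had a range of 0.219 to 0.476 in WT and 0.145 to 0.205 in *Zfp36*ΔARE libraries, with no overlap. *Cd34* per *Pecam1*, an endothelial adhesion molecule, had a range of 2.21 to 3.80 and 2.13 to 3.38, with medians of 3.35 and 3.17. These ratios restate the log2 fold changes of single genes, -1.10 for *Cd34*, -1.09 for *Pecam1* and -0.17 for *Krt15*. Marker lists had medians of -1.19 (adipocyte), -0.98 (endothelial), -0.78 (fibroblast) and -0.21 (basal keratinocyte). The cells in which *Cd34* was lower were not tested. *Cd34* per *Pdgfra*, a receptor of fibroblasts, had a range of 1.73 to 2.06 and 1.42 to 1.90. *Nfatc1* per *Krt15* had a range of 0.0539 to 0.0807 and 0.0342 to 0.0638. *Nfatc1* per *Pecam1* had a range of 0.473 to 0.707 and 0.574 to 0.999. The groups overlapped for these 3 ratios.

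**Figure D2:**
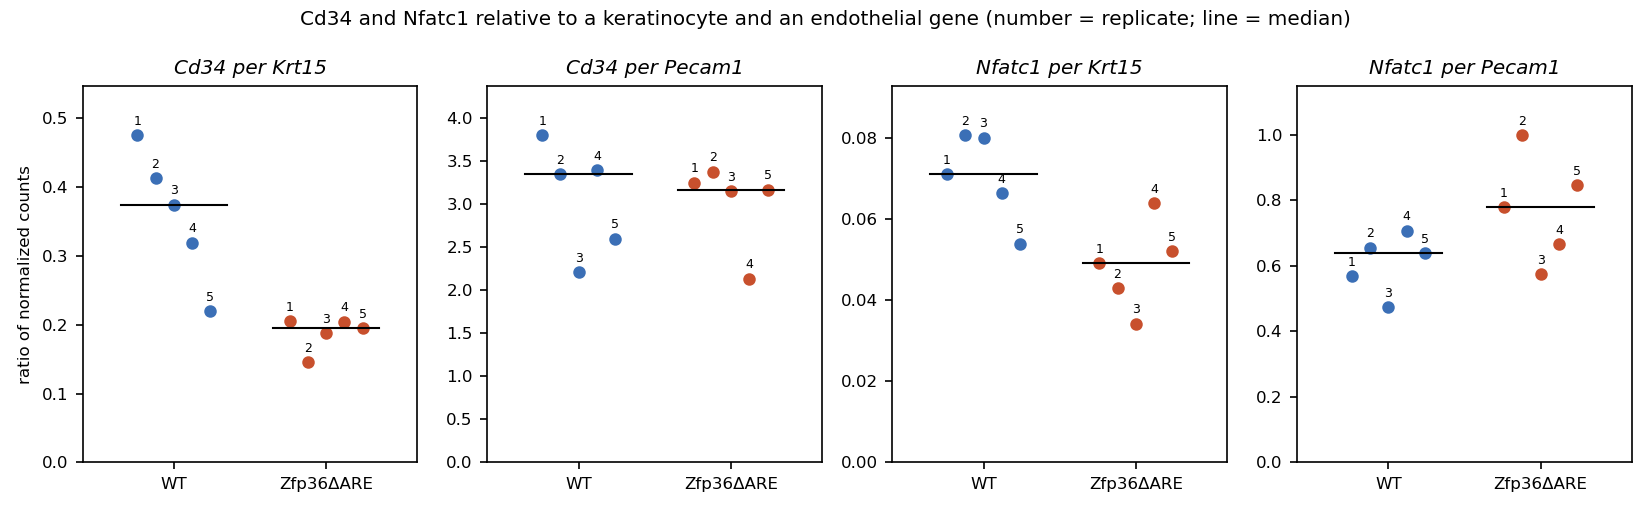
Ratios of normalized counts (y axis, from 0) of *Cd34* and *Nfatc1* to *Krt15*, a keratinocyte gene, and to *Pecam1*, an endothelial gene, in each library, with the replicate number above each point and the group median as a line. The groups separate for *Cd34* per *Krt15* and overlap in the 3 other panels.

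*Foxc1*, a transcription factor that helps to hold bulge stem cells at rest, was the member that was higher. WT replicates 1 to 5 had 664, 971, 616, 1022 and 928 normalized counts. *Zfp36*ΔARE replicates 1 to 5 had 1374, 1069, 1157, 1162 and 988. The groups overlapped, since *Zfp36*ΔARE replicate 5 lay below WT replicate 4, and WT replicates 1 and 3 were the lowest of all. The means were 840.1 ± 186 and 1150 ± 144 (SD, n = 5 mice per group), and the log2 fold change was 0.45 (standard error 0.15, 95% interval 0.12 to 0.79), which is 1.37-fold higher, with an adjusted p of 0.041 from edgeR and p = 0.016 in the exact two-sided permutation test. This call is near the threshold, and the cells in which *Foxc1* was higher were not tested. Without WT replicates 1 and 3 the log2 fold change was 0.24 (edgeR adjusted p = 0.12), and the call was also lost with WT replicate 1, WT replicate 3 or any of *Zfp36*ΔARE replicates 1 to 4 left out alone, at adjusted p between 0.064 and 0.090.

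Hair shaft and matrix markers were set beside *Foxc1*. Of 15 shaft and inner root sheath markers 1 passed the test, *Krt35* (log2 fold change 1.38, edgeR adjusted p = 0.048), beside 34.3% of all tested genes. The groups did not overlap for 12 of the 15, beside 23.1% of all tested genes, and the median log2 fold change was 2.17. Their summed level ranged from 39364 to 754352 normalized counts in WT and from 845056 to 1655700 in *Zfp36*ΔARE skin. Of 8 hair matrix and dermal papilla markers 6 were higher and 1 lower, beside 15.3% and 19.1% of all tested genes. Their sums ranged from 4797 to 16162 and from 21438 to 30015, and no marker of either list was at 0. With the hair shaft score as a covariate the log2 fold change of *Foxc1* was 0.10 (edgeR adjusted p = 0.72), that of *Cd34* -0.78 (adjusted p = 0.053) and that of *Nfatc1* -0.43 (adjusted p = 0.17). The score did not overlap between the groups, so shaft content and genotype cannot be told apart in that fit. There 59 of all 15543 genes passed, against 5335 in the main fit.

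**Figure D3:**
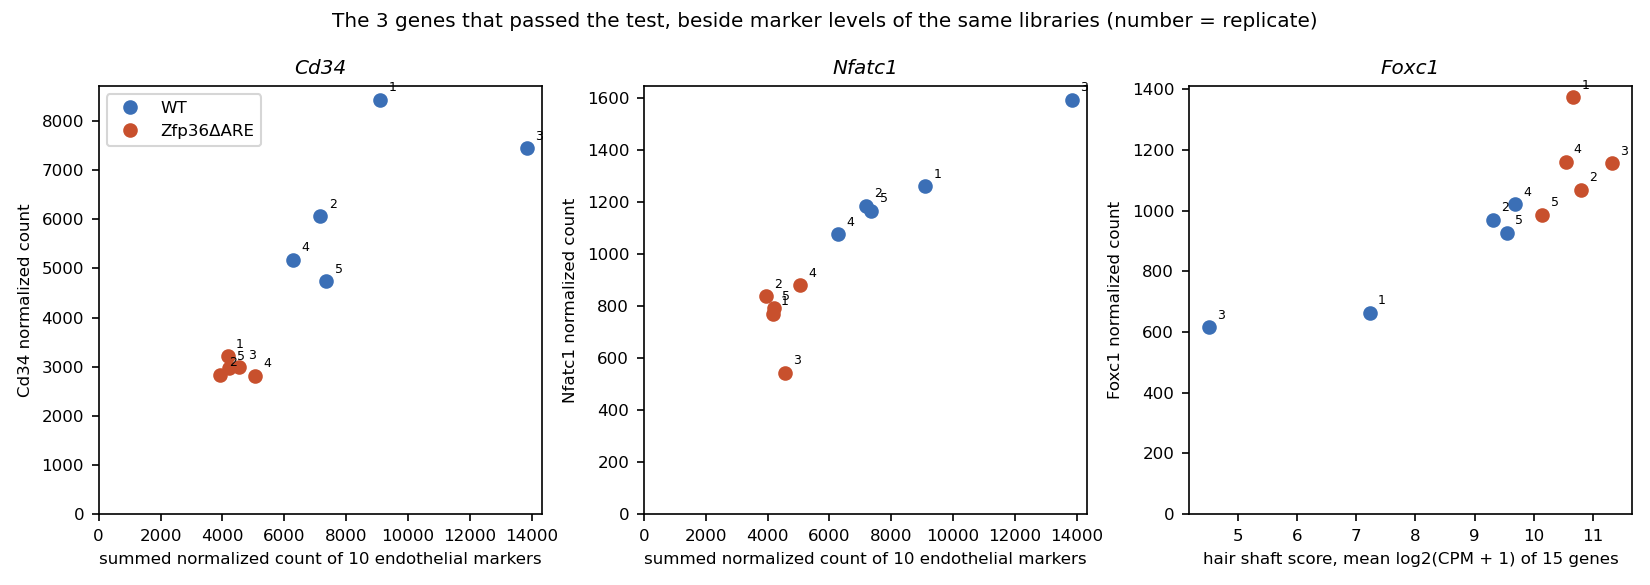
*Cd34* and *Nfatc1* normalized counts (y axis, from 0) against the summed normalized count of 10 endothelial markers, and *Foxc1* normalized counts against the hair shaft score, in the 10 libraries with replicate numbers. WT libraries sit at 6293 or more on the endothelial axis and *Zfp36*ΔARE libraries at 5046 or less, and WT replicates 1 and 3 have the lowest *Foxc1* values and shaft scores.

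*Lgr5* and *Lgr6* encode related R-spondin receptors, of which *Lgr5* marks the lower bulge and germ and *Lgr6* the isthmus and parts of the epidermis. *Lgr5* had 1428, 1956, 900.5, 1841 and 1686 normalized counts in WT replicates 1 to 5 and 1768, 1495, 1263, 1417 and 1338 in *Zfp36*ΔARE replicates 1 to 5. The groups overlapped widely, with the lowest value of all in WT replicate 3, and the log2 fold change was -0.10 (95% interval -0.51 to 0.31, edgeR adjusted p = 0.69). Without WT replicate 3 it was -0.25 (adjusted p = 0.13), and without WT replicates 1 and 3 it was -0.33 (adjusted p = 0.058). *Lgr6* had 428, 379.6, 766, 448 and 544 normalized counts in WT and 301, 420.1, 350.3, 282 and 427 in *Zfp36*ΔARE skin. Here WT replicate 3 was the highest, and 3 of the 5 *Zfp36*ΔARE libraries lay below every WT library. The log2 fold change of *Lgr6* was -0.53 (standard error 0.20, 95% interval -0.96 to -0.088), and it missed the threshold at an adjusted p of 0.061 from edgeR (exact two-sided permutation p = 0.040, unadjusted over genes). Without WT replicate 3 it was -0.34 (edgeR adjusted p = 0.12) and with the hair shaft score as a covariate -0.16 (adjusted p = 0.76). DESeq2 gave -0.52 with an adjusted p of 0.034. On simulated counts DESeq2 recovered 92% of changed genes with 21.79% false calls, against 86.4% and 6.52% for edgeR. That simulation changed 199 of 15468 genes, while 34.3% of genes were called here, so its shares of false calls do not carry over. *Lgr5* per *Lgr6* had a range of 1.18 to 5.15 in WT and 3.13 to 5.87 in *Zfp36*ΔARE libraries, and the groups overlapped.

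*Sox9*, a transcription factor needed to form and keep the bulge, varied most between mice, with an SD of 36.2% of the mean in WT and 41.1% in *Zfp36*ΔARE skin. WT replicates 1 to 5 had 953, 2057, 883, 1813 and 1426 normalized counts. *Zfp36*ΔARE replicates 1 to 5 had 3109, 1523, 1764, 2382 and 1027. *Zfp36*ΔARE replicate 1 was the highest of all 10, and replicate 5 lay among the lowest. The log2 fold change was 0.46, as large as that of *Foxc1*, but its standard error was 0.32 (95% interval -0.25 to 1.17) and its adjusted p 0.28 from edgeR, and without *Zfp36*ΔARE replicate 1 it was 0.23.

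The other 4 genes also overlapped between groups. *Lhx2*, a LIM homeobox factor of bulge and germ, had 741 to 1223 normalized counts in WT and 838 to 1481 in *Zfp36*ΔARE skin, with a log2 fold change of 0.031 (95% interval -0.37 to 0.43, edgeR adjusted p = 0.90). *Krt15* had 14708 to 21635 and 13784 to 19521, with a log2 fold change of -0.17 (95% interval -0.45 to 0.11, adjusted p = 0.30). The intervals of both genes lie within a 2-fold change in either direction, and the sign of *Lhx2* turned under upper-quartile scaling (-0.0011). *Lrig1*, a negative regulator of EGF receptor signaling that marks the isthmus and upper follicle, had 4251 to 6108 and 3423 to 6006, with a log2 fold change of -0.17 (95% interval -0.52 to 0.19, edgeR adjusted p = 0.43). *Tcf7l1*, which encodes TCF3, a repressor of Wnt target genes in the bulge, had 599 to 838 and 499.8 to 780.1, with a log2 fold change of -0.19 (95% interval -0.46 to 0.090, edgeR adjusted p = 0.26). An exon of *Lrig1* overlaps *Slc25a26* on the other strand (116 to 285 counts per library) and an exon of *Tcf7l1* overlaps *Gm15401* (1 to 7 counts), and the sources used here do not say if fragments were counted by strand.

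**Figure D4:**
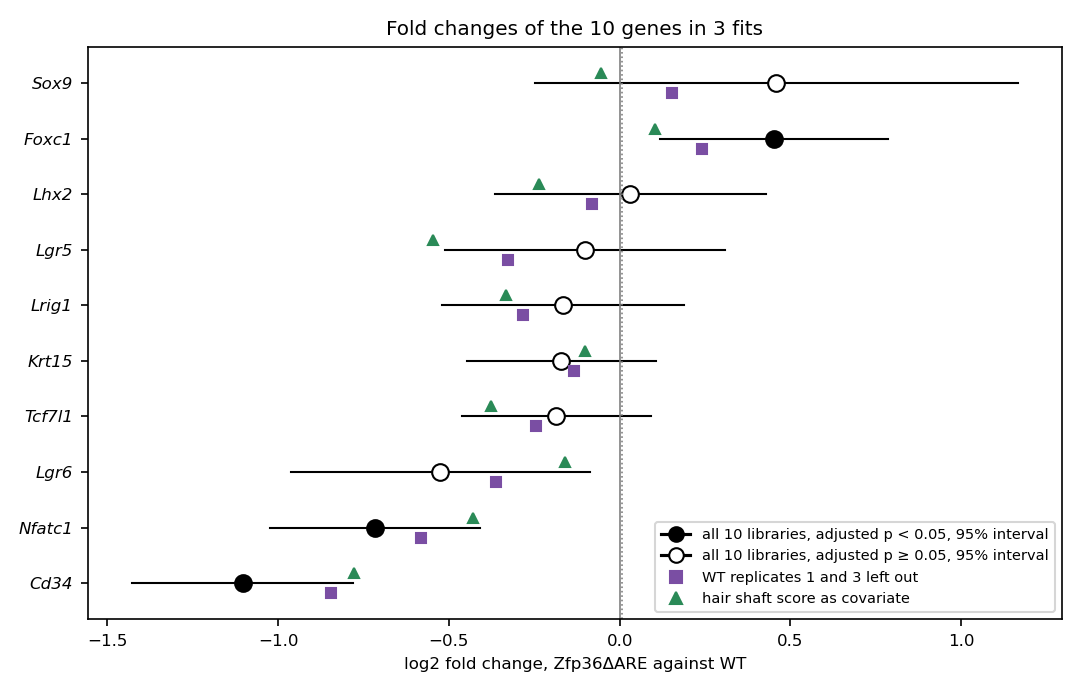
Log2 fold changes, *Zfp36*ΔARE against WT (x axis), of the 10 genes with 95% intervals as lines (filled circles, edgeR adjusted p under 0.05), beside the values with WT replicates 1 and 3 left out (squares) and with the hair shaft score as a covariate (triangles). *Cd34* and *Nfatc1* are below 0 in all 3 fits, *Foxc1* is at 0.45, 0.24 and 0.10, *Lgr5* at -0.10, -0.33 and -0.55, and *Sox9* changes sign with the hair shaft score and *Lhx2* in both.

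The spread within a group was shared by several of the genes. WT replicate 3, with the lowest hair shaft score, was the lowest WT library for 6 of the 10 genes, *Lgr5*, *Sox9*, *Lhx2*, *Lrig1*, *Tcf7l1* and *Foxc1*, and the highest for *Lgr6* and *Nfatc1*. *Zfp36*ΔARE replicate 1, the one *Zfp36*ΔARE mouse without Y-linked counts, was the highest of its group for 7 of the 10, *Lgr5*, *Cd34*, *Sox9*, *Lhx2*, *Lrig1*, *Tcf7l1* and *Foxc1*. With 1 such mouse, no comparison of genotypes could be made within the libraries that lack Y-linked counts. For *Cd34* that mouse had 3214 normalized counts beside 4744 in the lowest WT library, and for *Nfatc1* it had 770.3 beside 1077. This 1 mouse cannot separate the marks of sex from genotype.

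Among 20 other genes of the bulge, germ and isthmus, 1 was higher and 3 were lower in *Zfp36*ΔARE skin, with a median log2 fold change of 0.098. These 4 of 20 stand beside 34.3% of all tested genes, a larger share than in this list. *Npnt*, an extracellular matrix protein that bulge cells lay down for the arrector pili muscle, had 784 to 1325 normalized counts in WT and 542 to 622 in *Zfp36*ΔARE skin (log2 fold change -0.83, standard error 0.16, edgeR adjusted p = 0.0070). *Cd200*, a surface marker of bulge and germ, changed less, with 1142 to 1342 and 836 to 1080 normalized counts (log2 fold change -0.29, adjusted p = 0.023). *Foxp1*, a transcription factor that restrains bulge cell division, had 1472 to 2090 and 2278 to 3514 (log2 fold change 0.58, adjusted p = 0.014). *Itga6*, an integrin of all basal keratinocytes that the basal list also holds, had a log2 fold change of -0.29 (adjusted p = 0.045). Of the genes with the most counts, *Col17a1* (log2 fold change -0.28, adjusted p = 0.081) and *Vdr* (0.24, adjusted p = 0.33) did not pass. The groups did not overlap for 4 of the 20 genes, beside 23.1% of all tested genes. *Npnt* and *Cd200* lay below WT, and *Foxp1* and *Cdh3* above it. Of the 4 calls *Npnt* alone was kept without WT replicates 1 and 3, where *Cdh3* was called in addition. With the hair shaft score as a covariate 0 were kept (3 of 20 genes at an unadjusted p under 0.05 in edgeR). In that fit 59 of all 15543 genes passed, against 5335 in the main fit. The call of *Itga6* was also lost without the filter on low counts and with any one of WT replicates 2 to 5 or *Zfp36*ΔARE replicates 1 to 3 left out.

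The signals that act on these cells were taken in 3 lists. The lists were chosen with earlier results of these data known, so their counts are a description and not a test. Of 12 R-spondin and Wnt genes, 8 were higher in *Zfp36*ΔARE skin and 0 lower, beside 15.3% and 19.1% of all tested genes, with a median log2 fold change of 0.65. These were the Wnt-responsive factors *Tcf7* (log2 fold change 1.34, edgeR adjusted p = 0.0052) and *Lef1* (1.16, 0.024), the feedback inhibitors *Axin2* (0.57, 0.0081), *Nkd1* (1.003, 0.015), *Rnf43* (0.66, 0.0077) and *Znrf3* (0.36, 0.022), and the ligands *Rspo4* (1.20, 0.012) and *Rspo3* (0.65, 0.032). *Lgr4*, the third receptor of the *Lgr5* and *Lgr6* family, had 1968 to 3478 normalized counts in WT and 2520 to 3672 in *Zfp36*ΔARE skin (log2 fold change 0.057, adjusted p = 0.80). With the hair shaft score as a covariate 0 of these 8 calls were kept, with 5 of 12 genes at an unadjusted p under 0.05 in edgeR. In that fit 59 of all 15543 genes passed, against 5335 in the main fit. The score did not overlap between the groups, so the fit cannot separate it from genotype.

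Of 9 genes of BMP, FGF18 and prolactin signals that hold the bulge at rest, 5 were higher and 1 lower, beside the same 15.3% and 19.1%, with a median log2 fold change of 0.28. The BMP target genes *Id1* (log2 fold change 0.80, edgeR adjusted p = 0.0072), *Id2* (0.43, 0.0053) and *Id3* (0.78, 0.011), the ligand *Bmp6* (0.80, 0.0083) and the signal transducer *Smad5* (0.23, 0.029) were higher, and the prolactin receptor *Prlr* was lower (-0.55, 0.029). The receptor *Bmpr1a* (0.28, 0.13), the signal transducer *Smad1* (0.21, 0.10) and the ligand *Fgf18* (-0.56, 0.18) did not pass. The cells in which these genes differed were not tested. With the hair shaft score as a covariate 0 of the 9 genes passed edgeR's test, with 4 at an unadjusted p under 0.05. In that fit 59 of all 15543 genes passed, against 5335 in the main fit. Of 8 genes of signals that start growth, among them *Ptch1* (0.16, 0.33) and *Gli2* (-0.10, 0.60), 0 passed edgeR's test, 0 had an unadjusted p under 0.05, and 0 passed with DESeq2 or limma-voom.

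**Figure D5:**
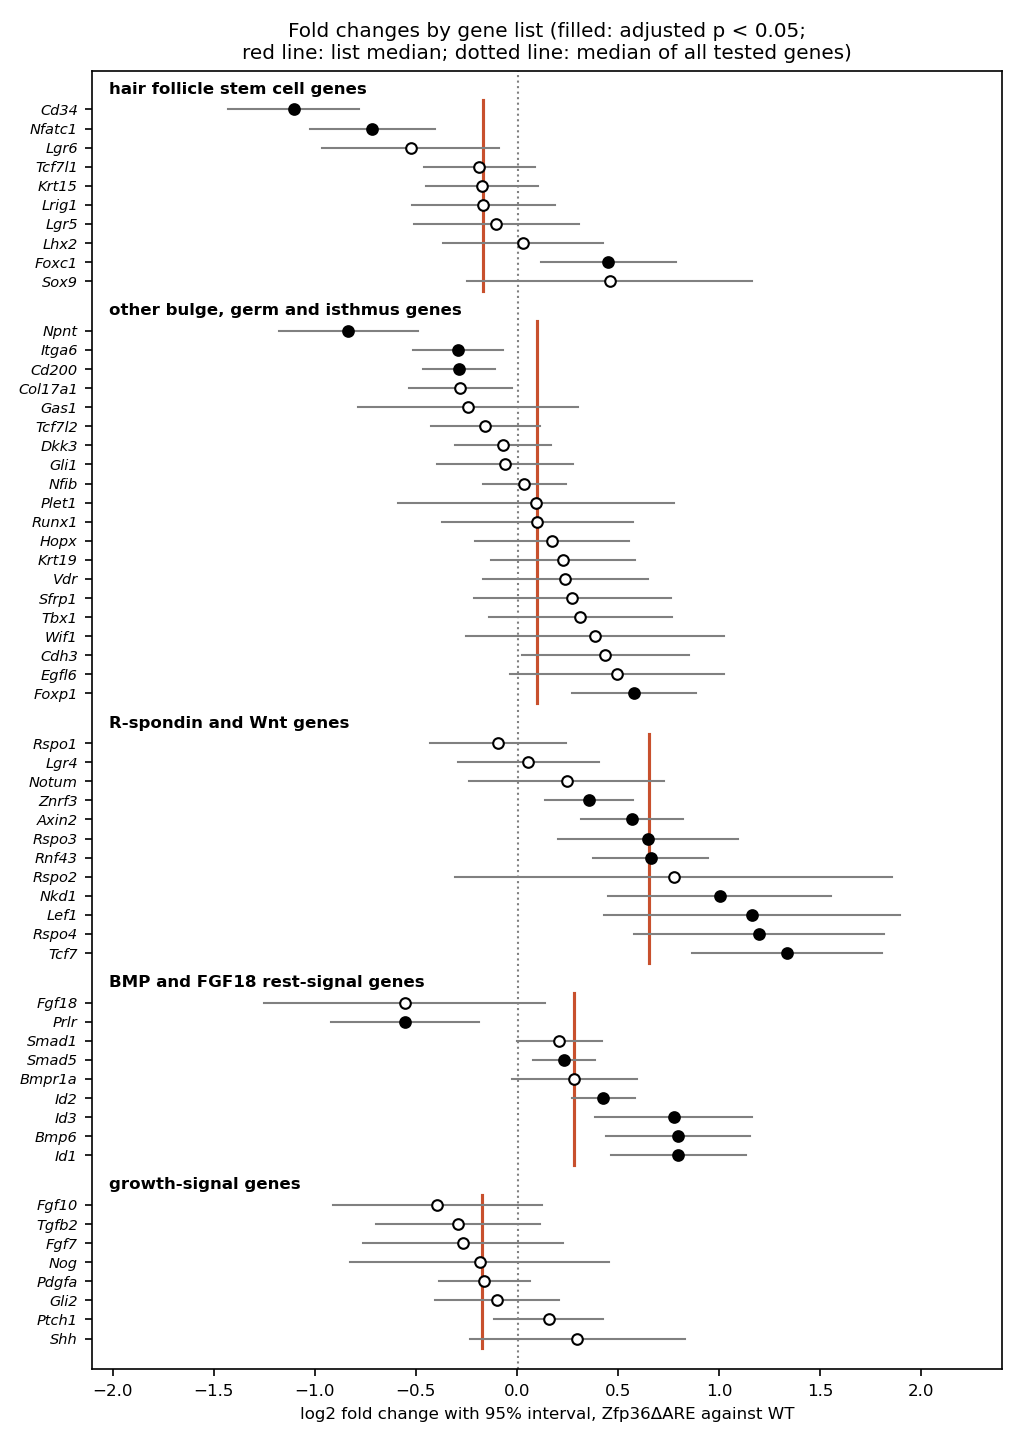
Log2 fold changes with 95% intervals (x axis) for each gene of the 10 follicle stem cell genes, 20 other bulge, germ and isthmus genes, 12 R-spondin and Wnt genes, 9 rest-signal genes and 8 growth-signal genes, filled where the edgeR adjusted p is under 0.05, with list medians as red lines and the median of all tested genes dotted. The R-spondin and Wnt genes centre on 0.65, and the follicle stem cell genes and growth-signal genes on -0.17.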

How the data were processed

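RNA from powdered full-thickness skin of 5 WT and 5 *Zfp36*ΔARE mice was sequenced, 1 library per mouse. Per the labels and the study's methods, the authors discarded reads of low quality, mapped the remainder with STAR 2.5.2b to mm10, assigned fragments to genes with featureCounts (Subread 1.5.0-p1) and deposited raw counts for 24454 genes, with each gene's length in bases. Counts of reads matching several genes and the use of strand are not given in the sources used here. The 2 rows with no gene name held 7.38e-05% of counts and were left out.

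From these counts, edgeR 4.0.16 (R 4.3.3) computed TMM factors, kept 15543 genes with filterByExpr, and tested *Zfp36*ΔARE against WT with the quasi-likelihood F-test, robust dispersions, p-values adjusted by the Benjamini-Hochberg method and genotype as the only term. The biological coefficient of variation had a median of 14.9%. Single values were compared by exact two-sided permutation over mice on the log2(CPM + 1) scale. A list score is the mean log2(CPM + 1) of its genes. The study used DESeq2, which was an alternative here (1.42.0), as were limma-voom (limma 3.58.1), other scalings and filters, a replicate block, score covariates and leaving out libraries. Endothelial and fibroblast scores as covariates were added after the data were seen. WT replicates 1 and 3, left out together, are the libraries with the lowest hair shaft scores, so that choice is not independent of the data. On simulated counts with 199 changed genes among 15468, edgeR called 86.4% of them, with 6.52% false calls. The members and lists were chosen with earlier results of these data known. Genes named are the members, *Zfp36*, *Xist* and the Y-linked genes, and in each signal or stem cell list up to 6 called genes of smallest p plus the 2 with the most counts, and in the marker lists the 2 with the most counts where examples are given. *Rspo3*, *Cdh3*, *Fgf10*, *Fgf18*, *Smad1*, *Pecam1*, *Pdgfra*, *Egfl7*, *Kit*, *Krt35*, *Thy1* and the overlapping gene models fall outside that rule and were named after their values were seen. *Xist* had 14829 to 26103 counts in WT libraries and 4 to 28087 in *Zfp36*ΔARE libraries. P-values set the difference between the groups against the spread between the 5 libraries within a group. For edgeR the estimate of that spread also draws on the other genes tested. No other experiment of the study was used here.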

Additional observations from a re-analysis of the deposited data

Results flagged for a closer look

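Among the named genes, 68 groups of 5 libraries were searched for a library set apart from the other 4 by Dixon's ratio of gap to range, of which chance flags about 3.4, and 3 exceeded 0.71. *Lhx2* in WT had a ratio of 0.811, with 741 normalized counts in WT replicate 3 against 1132 to 1223 in the other 4, and that library also had the lowest hair shaft score. *Nkd1* in WT had a ratio of 0.714, with 592 normalized counts in WT replicate 5 against 292 to 378. *Id2* in WT had a ratio of 0.787, with 1235 normalized counts in WT replicate 5 against 1082 to 1115.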

How the results depend on the processing

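*Cd34* and *Nfatc1* kept their direction in each of 23 alternatives and passed edgeR's threshold, or that of DESeq2 or limma-voom, in 19, all but those with a hair shaft, Y-linked, endothelial or fibroblast covariate; *Foxc1* passed in 11. Of the 10 genes 3 passed, and 1 with a fold over 2. With hair shaft, Y-linked, endothelial or fibroblast values as covariates these counts were 0 and 0, with 4, 4, 4 and 5 of the 10 genes at an unadjusted p under 0.05, and with the basal keratinocyte score 5 genes passed (*Lgr6*, *Cd34*, *Sox9*, *Nfatc1* and *Foxc1*). Without WT replicates 1 and 3 together 2 passed and 0 had a fold over 2. With 1 library left out, 2 to 4 passed and 0 to 1 had a fold over 2, 0 without WT replicate 1. Among the other stem cell genes 4 were called, 2 without WT replicates 1 and 3 (*Npnt*, and *Cdh3* in place of the other 3) and 0 with each of those 4 covariates (3, 2, 6 and 2 at an unadjusted p under 0.05), and there were 2 to 4 with 1 library left out, 2 without *Zfp36*ΔARE replicate 2. The 8 R-spondin and Wnt calls became 0 with those covariates (5, 3, 4 and 4 unadjusted) and were 5 to 8 with 1 library left out, 5 without *Zfp36*ΔARE replicate 2. The 6 rest-signal calls became 0 with those covariates (4, 5, 1 and 4 unadjusted), and the basal score gave 1 growth-signal call, *Fgf10*, in place of 0. Over all genes there were 5335 calls, 2504 without WT replicates 1 and 3, 59 with the hair shaft score and 0 with the Y-linked, endothelial or fibroblast values (3382, 1014 and 1642 unadjusted). With 1 library left out they numbered 3333 to 5349, with 3454 without WT replicate 1, 3333 without *Zfp36*ΔARE replicate 2 and 3506 without *Zfp36*ΔARE replicate 3. Hair shaft and endothelial scores did not overlap between groups, which leaves these fits little room to separate them from genotype.

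The labels do not say whether equal replicate numbers pair the mice. Deviations correlated over 0.1 in 0 of 5 same-numbered pairs (-0.19 to 0.085), and pairs of unlike number ranged from -0.41 to 0.36. A lack of correlation cannot exclude pairing. A replicate block gave 2740 calls over all genes, 5 among the R-spondin and Wnt genes, and 2 of the 10 genes, with *Foxc1* at a log2 fold change of 0.47 and an edgeR adjusted p of 0.089.

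Signs turned in 33 of 782 values of single genes, against 618 that kept sign and side of the threshold, 126 that lost the call and 5 that gained it. The turned values follow as log2 fold changes, those with 1 library left out as a range. With the hair shaft score *Sox9* was -0.055, *Lhx2* -0.24, *Vdr* -0.23, *Lgr4* -0.25 and *Bmpr1a* -0.019. With the endothelial score *Lgr6* was 0.024, *Sox9* -0.32, *Lhx2* -0.59, *Foxc1* -0.087, *Vdr* -0.53, *Lgr4* -0.51, *Lef1* -0.0055 and *Bmpr1a* -0.22. With the fibroblast score *Sox9* was -0.52, *Lhx2* -0.35, *Foxc1* -0.040, *Vdr* -0.19, *Lgr4* -0.38 and *Bmpr1a* -0.13. With Y-linked counts *Lgr5* was 0.18, *Lrig1* 0.29, *Tcf7l1* 0.037 and *Gli2* 0.12, and with the basal score *Lgr5* was 0.069 and *Gli2* 0.018. *Lhx2* was -0.0011 under upper-quartile scaling and -0.080 without WT replicates 1 and 3, and from -0.098 to 0.11 with 1 library left out, below 0 when WT replicate 3 or *Zfp36*ΔARE replicate 1 or 2 was out. *Lgr4* was -0.090 without WT replicates 1 and 3 and from -0.047 to 0.15 with 1 library left out, below 0 when WT replicate 3 or *Zfp36*ΔARE replicate 1 was out. The cause was not tested.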
